A study of Mus musculus with 4 samples.

Results

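The regions called for H4K20me1 on mouse chromosome 11 were described in a mixed culture and in a clone taken from it. H4K20me1 is histone H4 with a single methyl group on lysine 20. Members were all entries with chromosome 11 in each of the 2 deposited lists, which gave 1898 of 28166 regions for the MSC21 population and 990 of 11809 for the clone 4L.1.4. Chromosome 11 was chosen by the number of called regions in the lists, since earlier results of these data showed its clone regions to be numerous relative to its population regions. Numbers of regions and overlaps are therefore given below as descriptions, with no test.

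Both groups were mesenchymal stem cells from the bone marrow of C57BL/6 mice, grown to confluence, fixed and sonicated. The population was a mixed culture and 4L.1.4 a single clone derived from it, so that 1 clone was sampled. An H4K20me1 antibody and, as control, non-immune rabbit serum were used on each culture, which gave 4 libraries, 1 of each kind per culture. The lists hold chromosome, start and end in the mm9 build, with no read count or score, and the sequencing depth behind a region is unknown. Since no group has a second library, replicate error could not be estimated, and all intervals printed below are exact Clopper-Pearson 95% intervals that cover counting error only and take neighbouring regions as independent. A region missing from a list was not called in that culture, and the mark may still have been present there.

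H4K20me1 is placed by the methyltransferase KMT5A (also called SET8 or PR-Set7) and is converted to the di- and trimethylated forms by the SUV4-20H enzymes. It is known from broad stretches over transcribed gene bodies and from the silenced X of female cells, and is linked to mitotic chromosome condensation. Chromosome 11 of the mouse is gene-rich and carries, among others, the Hoxb cluster of body-patterning genes and Col1a1, a main collagen gene of bone-forming cells. No gene is assigned to a region here, because the gene table at hand describes another build, GRCm38.p6.

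Chromosome 11 was densely marked in both cultures. Population regions covered 8.77 Mb and clone regions 6.51 Mb of the 118.5 Mb between the first and the last region (3103097 to 121574253), which is 74.0 and 55.0 kb per Mb. Among the 20 chromosomes the clone density was the highest and the population density the third highest. The population had 1.92 times as many regions as the clone and 1.35 times as many covered base pairs on chromosome 11, against 2.43 and 1.88 times on the other chromosomes together. Among regions of at least 2000 bp the lists were closer in number, with 920 population and 800 clone regions.

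The difference in number lay mainly among narrow regions. In the population 733 of the chromosome 11 regions (38.6%) were under 1500 bp wide, and in the clone 41 (4.14%) were. The narrowest population region measured 398 bp and the narrowest clone region 1121 bp. Both lists carry the same tag, FDR5, in their names, but other settings of the calls are not stated, and these, depth and a difference between the cultures cannot be told apart here. Population regions had a median width of 1926.5 bp, with quartiles at 1155.25 and 4566.75 bp. Clone regions had a median width of 3577.5 bp, with quartiles at 2183 and 7667.75 bp. Among regions of at least 2000 bp the order turned, with a median of 4703.5 bp for population and 4587 bp for clone regions. Over the other chromosomes the medians were 2135 and 3687 bp. Much of the sequence lay in wide regions: the 207 population regions of at least 10000 bp held 50.8% of the covered base pairs, and the 180 clone regions of that width held 53.9%. In the clone 6.67% of the chromosome 11 regions and 4.57% of those elsewhere reached 20000 bp, while in the population the shares were 4.43% and 4.28%.

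The mark was unevenly spread along the chromosome. In segments of 10 Mb counted from the chromosome start, which is the centromeric end, the population covered most in the eleventh segment (1185 kb) and the eighth (1159 kb), and the clone in the eleventh (978.8 kb) and the sixth (844.4 kb). Coverage was lowest in the second segment, with 198.3 kb in the population and 110.9 kb in the clone. The thirteenth segment held 231.2 and 157.3 kb, but ends early, at the last region. In the fifth segment the covered totals were nearly equal, at 249.5 kb from 64 population regions and 244.2 kb from 29 clone regions. A single stretch of 1 Mb there, from 44000001 to 45000000, held 92.2 kb of clone and 33.2 kb of population sequence. The common part was 46.1% of the union in the fifth segment, against 53.0% over the chromosome. The clone regions of that segment were wider, with a median of 5416 bp against 1536 bp.

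**Figure D1:**
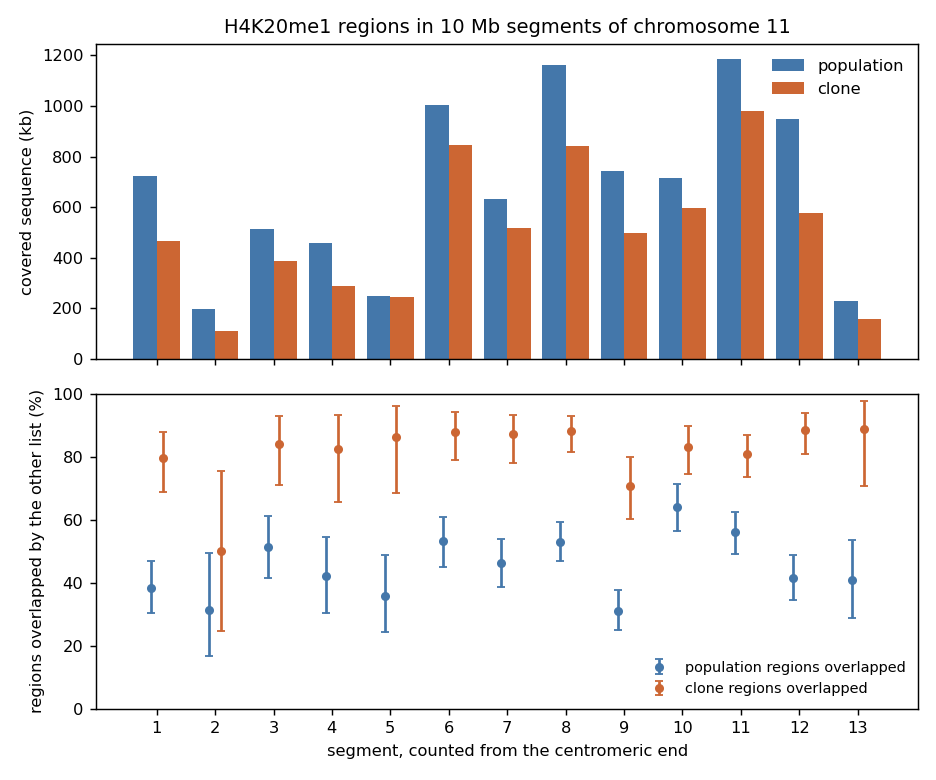
Upper panel: sequence covered (kb) by population and clone regions in each of the 13 segments of 10 Mb of chromosome 11. Lower panel: percent of the regions of each list that share at least 1 bp with the other list, with exact 95% intervals; the population share is lowest in segment 9 (31.1%) and highest in segment 10 (64.2%).

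Long empty stretches separated the marked parts, and both cultures shared them. The 18 stretches of at least 1 Mb that held no region of either list came to 41.4 Mb, or 35.0% of the length between the first and last region. The population alone had 18 such stretches (41.5 Mb) and the clone 20 (50.6 Mb). With regions under 2000 bp left out the population had 24 and the clone 20, so the order of these numbers depends on narrow regions. The longest shared stretch ran for 5.24 Mb (23794265 to 29031831). It was followed by 4.70 Mb (35793125 to 40491691), 4.04 Mb (12359656 to 16401692), 3.27 Mb (8555088 to 11829958) and 3.22 Mb (90506027 to 93723774). Of these 5, 4 lie nearer the centromeric end and the fifth beyond the middle. The 5 longest stretches of the clone list lay at the same places and were 5.28, 4.84, 4.52, 3.33 and 3.24 Mb long. Population regions stood inside the edges of each, from 3 regions in the longest to 10 in the stretch from 11884881 to 16401784. Population stretches from 35793125 to 40494971 and from 90505412 to 93723774 each held 1 clone region at an edge.

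Between the empty stretches regions lay close together. Neighbouring population regions stood a median of 3153 bp apart, with quartiles at 560 and 26960 bp. Neighbouring clone regions stood 8320 bp apart, with quartiles at 946 and 70149 bp. Of the population gaps, 640 (33.7%) were under 1000 bp and 162 under 100 bp. In the clone 252 (25.5%) and 69 were.

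Some narrow breaks in each list were closed in the other. Of the 640 population breaks under 1000 bp, 161 (25.2%, interval 21.8 to 28.7%) lay wholly inside a clone region, where the share over all chromosomes was 14.7%. In the reverse direction 110 of the 252 clone breaks (43.7%, 37.4 to 50.02%) lay wholly inside a population region, against 53.6% over all chromosomes. The remaining breaks include 410 population breaks (64.1%) that held no clone sequence at all, against 78.6% on the other chromosomes. They also include 104 clone breaks (41.3%) that held no population sequence, against 31.7% on the other chromosomes.

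Joining regions of a list that lay within 10000 bp of each other gave 693 clusters in the population and 478 in the clone. Single regions made up 296 population clusters (42.7%) and 249 clone clusters (52.1%). Clusters of at least 5 regions numbered 109 in the population and 43 in the clone, and held 44.7% and 25.4% of the regions. With regions under 2000 bp left out, these numbers were 19 and 18, and with the population list cut to its 990 widest regions 27 and 43. Clusters of 10 or more regions were found 18 times in the population, with up to 28 regions, and 2 times in the clone, with up to 12. The median cluster spanned 8.18 kb in the population and 11.1 kb in the clone.

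Population regions standing alone were met by a clone region in 39.9% of cases (34.2 to 45.7%). In clusters of 2 to 4 regions 50.3% (46.7 to 53.96%) were met, in clusters of 5 to 9 it was 51.5% (47.3 to 55.7%), and in clusters of 10 or more 37.0% (31.3 to 42.9%). By base pairs the share of population sequence also marked in the clone was 69.5% in single regions, 64.4%, 57.2% and 45.2%, in the same order. Each of the 18 largest population clusters nevertheless held at least 1 clone overlap. In the clone list single regions were met in 88.4% (83.7 to 92.1%) of cases and those in clusters of 5 to 9 in 74.2% (68.1 to 79.8%). The value for the 2 largest clone clusters, 54.5%, rests on 22 regions.

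**Figure D2:**
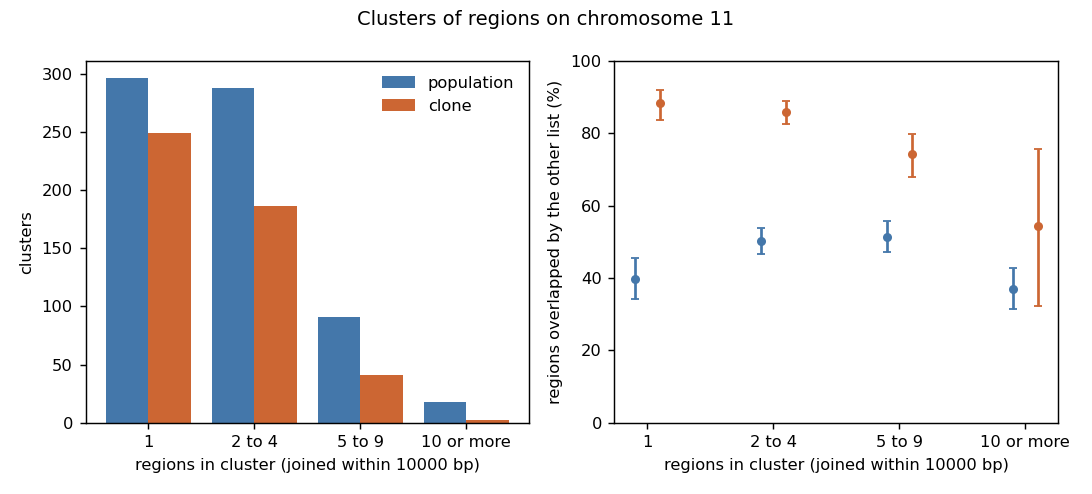
Left: number of clusters on chromosome 11 by the number of regions they hold, for the population and the clone list. Right: percent of the regions in these clusters that share at least 1 bp with the other list, with exact 95% intervals; the largest class holds 284 population and 22 clone regions.

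The cluster with the most marked sequence in the population ran from 119465008 to 119659264, where 13 regions filled 172.0 of 194.3 kb. Clone regions covered 62.2 kb of it, in 13 pieces. The next, from 104193137 to 104330206, held 129.9 kb in 9 population regions, of which 44.5% was marked in the clone. Another, from 59920855 to 60033536, held 98.2 kb in 5 regions and was marked to 94.3% in the clone. The clusters from 30053504 to 30167226 (96.8 kb in 19 regions) and from 32543366 to 32634937 (90.2 kb in 3 regions) were shared to 69.1% and 7.69%. Among the most heavily marked places of the population the clone thus ranged from nearly complete to nearly absent coverage.

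The clone's heaviest clusters were smaller and mostly shared. The largest, from 4398665 to 4494430, held 80.5 kb in 6 regions, and population regions covered 94.3% of that sequence. From 59920080 to 60001121 the clone marked 78.9 kb in 6 regions, 99.02% of it inside a single population region. The other 3, from 117516604 to 117591514 (63.3 kb), from 59476387 to 59541241 (61.9 kb) and from 74463830 to 74537335 (61.5 kb), were covered to 98.3%, 80.2% and 92.2% by the population.

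How much of its parent's mark the clone kept was the next comparison. Of the 1898 population regions, 893 (47.0%, 44.8 to 49.3%) shared at least 1 bp with a clone region, where the share over all chromosomes was 33.7%. This was the highest share of the 20 chromosomes. Conversely, 823 of 990 clone regions (83.1%, 80.7 to 85.4%) shared sequence with the population, where 84.8% did over all chromosomes, and chromosome 11 ranked sixteenth of 20. The sequence marked in both lists came to 5.30 Mb, or 60.4% of the population's marked sequence and 81.3% of the clone's. Over the other chromosomes these shares were 43.9% and 82.7%. The common part was 53.0% of the union of 9.98 Mb, against 40.2% elsewhere, again the highest of the 20 chromosomes. The chromosome was chosen for its many clone regions relative to population regions. This choice tends to raise the share of population regions met and the common part. Chromosome 13, with the lowest clone share of regions (18.3%), also had the lowest share of population regions met (14.9%). The ranks are therefore descriptions and carry no separate result.

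The higher share of population regions met was also seen within classes of width. The choice of the chromosome tends to raise these shares as well, so they are descriptions and no separate result. Population regions under 1000 bp were met in 20.3% of cases (15.8 to 25.3%) on chromosome 11 and 10.96% (9.84 to 12.2%) elsewhere. At 1000 to 2000 bp the shares were 31.1% (27.6 to 34.7%) and 15.7% (14.9 to 16.4%), and at 2000 to 5000 bp 53.9% (49.3 to 58.4%) and 32.4% (31.4 to 33.5%). Regions of 5000 to 10000 bp were met in 79.5% (73.7 to 84.5%) and 59.5% (57.8 to 61.2%). At 10000 to 20000 bp the shares were 87.8% (80.7 to 93.01%) and 76.5% (74.6 to 78.3%). From 20000 bp on, 69 of 84 regions were met on chromosome 11, and the intervals of 82.1% (72.3 to 89.6%) and 78.8% (76.3 to 81.2%) overlapped. With only regions of at least 2000 bp in both lists the share of population regions met was 63.04% on chromosome 11 and 46.1% over all chromosomes.

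Clone regions of 1000 to 2000 bp were met in 67.4% of cases on chromosome 11 (60.2 to 73.98%) and in 77.9% elsewhere (76.1 to 79.7%). In the wider classes the chromosome 11 shares lay near those of the other chromosomes. They were 80.9% against 81.1% at 2000 to 5000 bp and 98.5% against 96.6% from 20000 bp on. Of the 66 clone regions of at least 20000 bp, 65 were met. The exception was the widest clone region of the chromosome.

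**Figure D3:**
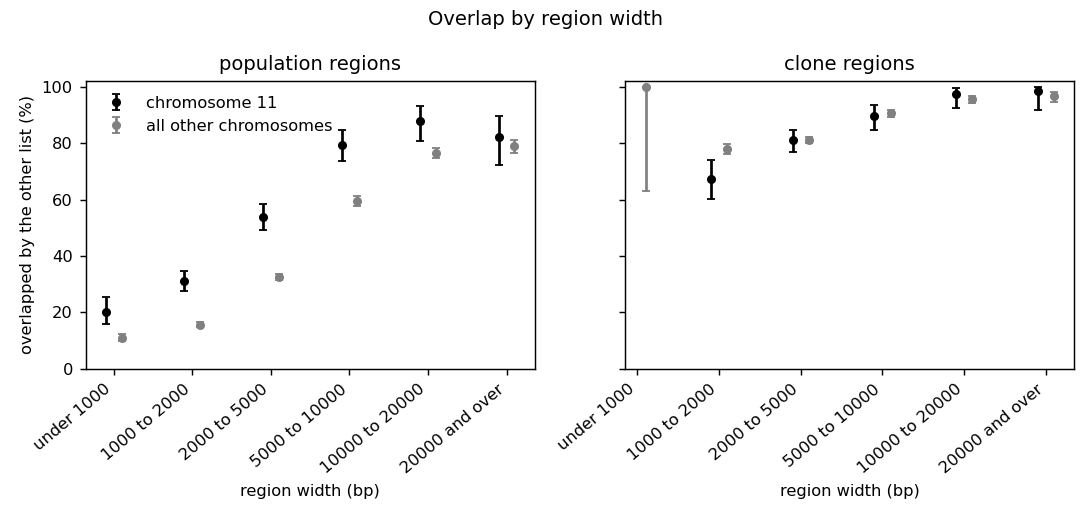
Percent of population regions (left) and clone regions (right) that share at least 1 bp with the other list, by region width in bp, for chromosome 11 and for all other chromosomes together, with exact 95% intervals. For population regions chromosome 11 lies above the others in each class, with intervals that overlap in the widest class. The intervals cover counting error only and are no test. The chromosome was chosen for its many clone regions relative to population regions, which tends to raise its population shares. No clone region of chromosome 11 was under 1000 bp.

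The share of population regions met varied along the chromosome. It was highest in the tenth segment of 10 Mb, with 111 of 173 regions (64.2%, 56.5 to 71.3%), and lowest in the ninth, with 69 of 222 (31.1%, 25.1 to 37.6%), although the segments are neighbours. The second segment was also low, with 11 of 35 (31.4%, 16.9 to 49.3%). Clone regions were met least in the same second and ninth segments, in 8 of 16 cases (50.0%, 24.7 to 75.3%) and 63 of 89 (70.8%, 60.2 to 79.9%). In the other 11 segments the clone share ranged from 79.5% to 88.9%.

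A single bin of 1 Mb in the ninth segment, from 88000001 to 89000000, held the most population regions of any bin, 61, and only 5 clone regions. It was also the bin with the largest excess of the population, at 139.5 kb against 34.7 kb. Of its 61 population regions 40 were under 2000 bp wide, the widest measured 10.1 kb, and 9 were met by the clone. The longest run of consecutive population regions without a clone counterpart lay here, with 22 regions over 346.8 kb (88460733 to 88807563). Another run of 17 regions stood just before it (88250879 to 88361190). The runs of population regions were listed after their values had been seen.

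In 4 other bins the population excess was also large. From 8000001 to 9000000 the population covered 131.9 kb in 10 regions and the clone 33.2 kb in 6, and all of the clone sequence was shared. From 119000001 to 120000000 the values were 262.6 kb and 171.4 kb, the most population sequence of any bin. They were 186.8 and 95.9 kb from 32000001 to 33000000, and 196.96 and 107.2 kb from 117000001 to 118000000. The last of these bins held a run of 19 population regions with no clone counterpart (117105677 to 117189922, 55.8 kb marked). At its end and the start of the next lay a run of 20 such regions (117864115 to 118131905, 69.9 kb marked).

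Of the 122 bins of 1 Mb, 96 held some mark. Both lists marked 87 of them, the population alone marked 9, and no bin was marked by the clone alone. Over all chromosomes 1855 bins held some mark, of which both lists marked 1581, the population alone 265 and the clone alone 9. Bins of the clone alone were thus rare everywhere. On chromosome 11 the 9 bins of the population alone were sparse, with 22 regions and 42.04 kb in all. Across the 96 marked bins the covered kilobases of the lists were correlated (Pearson r = 0.90, Spearman rho = 0.90), as a description over bins that share their libraries and are not independent. Over all chromosomes the values were r = 0.79 and rho = 0.80. Median coverage of a marked bin was 84.3 kb in the population and 58.8 kb in the clone, against 56.3 and 26.0 kb over all chromosomes.

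**Figure D4:**
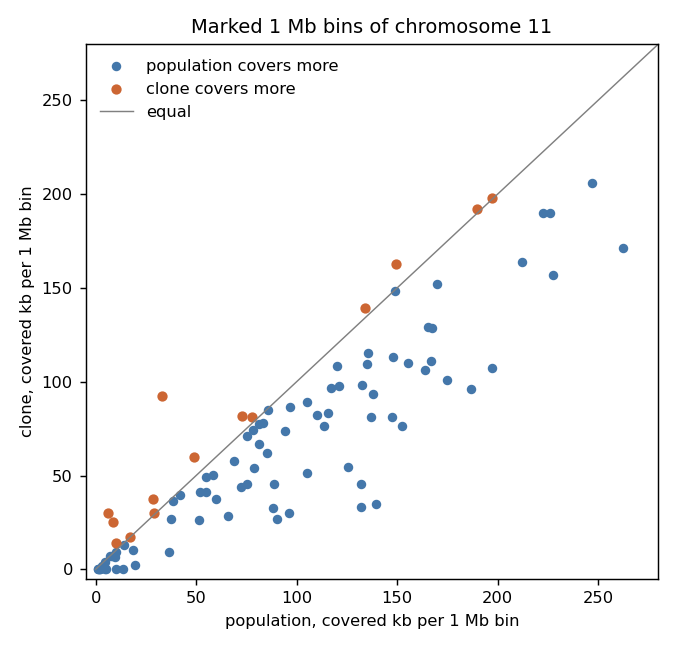
Sequence covered (kb) by clone regions against that covered by population regions, 1 point for each of the 96 marked bins of 1 Mb on chromosome 11. The line marks equal coverage, and the 14 bins above it are those with more clone than population sequence.

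In 14 of the 96 marked bins (14.6%) the clone covered more than the population, where 9.54% of marked bins did over all chromosomes. The choice of a chromosome with many clone regions tends to raise this share, which is a description only. The count depends on the bin and on the regions used. It was 33 of 168 with bins of 0.5 Mb and 4 of 55 with bins of 2 Mb. With regions of at least 2000 bp it was 28 of 90 (31.1%), and with the population list cut to its 990 widest regions 30 of 90 (33.3%). The excess ranged from 0.32 to 59.0 kb with a median of 7.15 kb, was under 5 kb in 6 bins and over 10 kb in 5. Some of the most heavily marked bins of the clone were among those near equality. From 97000001 to 98000000 the clone covered 197.7 kb and the population 197.2 kb, with 137.2 kb in common, and from 105000001 to 106000000 the values were 191.8, 189.7 and 162.4 kb. The bin with most clone sequence, from 59000001 to 60000000, was marked over 206.03 kb by clone and 247.1 kb by population regions.

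The largest clone excess lay from 44000001 to 45000000, with 92.2 kb in 8 clone regions against 33.2 kb in 9 population regions. It contained the widest clone region of the chromosome, 50.8 kb (44434209 to 44485012), to which the nearest population region stood 60.3 kb away. The second widest clone region without a counterpart, 14.3 kb (44671496 to 44685828), lay in the same bin and was 2.68 kb from the population. The lists had 17.0 kb in common in this bin, where 5 of the 8 clone regions and 4 of the 9 population regions met the other list.

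In 3 bins the lists shared no sequence although both marked them, and in 2 of these the clone covered more. From 82000001 to 83000000 the clone covered 25.5 kb in 10 regions and the population 8.54 kb in 4. From 108000001 to 109000000 the values were 30.1 kb in 8 regions and 6.04 kb in 4. From 112000001 to 113000000 the population covered 9.80 kb and the clone 6.59 kb. The remaining bins with an excess over 10 kb, from 86000001 to 87000000 (163.01 against 149.6 kb) and from 55000001 to 56000000 (59.9 against 49.0 kb), were mostly shared, with 107.1 and 43.96 kb in common.

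Clone clusters without any overlap by the population numbered 39 of 478 (8.16%), and 29 of them were single regions. Such clusters were counted on chromosome 11 only, so the share cannot be called particular to it. The 4 with at least 5 regions were named after their values had been seen. The largest was the cluster of 10 regions from 82635953 to 82682888, in which regions of 1.34 to 4.33 kb covered 25.5 of 46.9 kb, 35.7 kb from the nearest population region. A cluster of 7 regions from 19825822 to 19863316 covered 29.6 of 37.5 kb, 14.6 kb from the population list. From 108169619 to 108204253, 5 regions covered 24.8 kb, 47.5 kb away from any population region, and from 5267118 to 5300396, 5 regions covered 21.9 kb, 7.01 kb away. Within 500 kb on either side of the cluster at 108169619 the population had 4 regions with 5.01 kb, while around the cluster at 5267118 it had 32 with 164.6 kb. Clone-only clusters were therefore found both in sparse and in well marked surroundings of the population.

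In the population list 269 of 693 clusters (38.8%) met no clone region, and 178 of these were single regions. For this share, too, no value over all chromosomes was computed. Only 10 had at least 5 regions. Of these 10, 4 lay between 88296363 and 88725294, in the bin described above, and the most isolated stood from 12341781 to 12359655, with 5 regions covering 12.6 kb and 456.9 kb to the nearest clone region. The cluster nearest the distal end, from 121342839 to 121372066, held 9 regions of at most 1.82 kb.

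The widest single population regions differed in what the clone kept. The widest, 82.3 kb (32543366 to 32625630), was not overlapped, although a clone region stood 1.05 kb from its edge. The second, 81.03 kb (59920855 to 60001881), was marked in the clone to 96.4% by 6 separate regions of 1.39 to 24.6 kb. A region of 61.7 kb (11874188 to 11935910) was covered to 17.3% by 1 clone region of 10.7 kb at its start. The fourth, 61.3 kb (104211341 to 104272625), was not overlapped and had a clone region 0.17 kb away. The fifth, 59.1 kb (117516693 to 117575773), was covered to 98.8%.

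The next widest population regions without a counterpart measured 50.9 kb (119465008 to 119515894), 45.3 kb (72437331 to 72482581) and 35.8 kb (95574878 to 95610683), and clone regions stood 4.53, 0.26 and 0.29 kb from them. Closeness of this kind was not general. Of the 30 population regions of at least 10000 bp without a counterpart, 4 (13.3%, 3.76 to 30.7%) had a clone region within 1000 bp, and 3 of these 4 are among the 5 widest. Among those under 2000 bp wide, 62 of 706 (8.78%, 6.80 to 11.1%) had one. On the other chromosomes the shares were 8.12% for the regions of at least 10000 bp and 5.71% for those under 2000 bp.

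The widest clone regions, other than the 50.8 kb region, lay wholly or almost wholly inside population regions. Those of 49.3 kb (106732325 to 106781634), 49.1 kb (29593914 to 29643022), 47.0 kb (117516604 to 117563596) and 45.9 kb (106946681 to 106992540) were covered completely and to 99.6%, 99.8% and 99.6%. The third widest clone region without a counterpart was 11.3 kb wide (19825822 to 19837088), the fourth 11.2 kb (108176902 to 108188135) and the fifth 9.43 kb (5274906 to 5284337), and each belonged to a clone-only cluster named above.

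Unmatched regions had a smaller median width than matched ones in both lists. Of the 1005 population regions without a counterpart 706 (70.2%) were under 2000 bp wide, and of the 167 clone regions 62 (37.1%) were. On the other chromosomes 10639 of 17680 unmatched population regions and 448 of 1631 unmatched clone regions were that narrow. Median width was 1385 bp in the unmatched and 3665 bp in the matched population regions, and 2283 and 4043 bp in the clone. Unmatched population regions held 2.54 Mb, or 29.0% of the population's marked sequence, and unmatched clone regions 0.55 Mb, or 8.44%. Over the other chromosomes these shares of sequence were 41.4% and 9.12%. The median distance to the other list was 14757 bp for population regions and 6369 bp for clone regions. Beyond 100000 bp there were 124 population regions (12.3%), up to 1351 kb away, and no clone region, the farthest being 80.2 kb away. These regions were counted on chromosome 11 only. The population list has more regions to be near to, so the distances of the lists are not a like comparison. By width, unmatched population regions under 2000 bp, of 2000 to 10000 bp and wider lay a median of 14516.5, 15972 and 6386 bp away. On the other chromosomes these medians were 32626, 31858 and 32696 bp. For clone regions they were 3859, 7598 and 47780 bp, against 8065, 10558.5 and 22135 bp elsewhere. The widest clone class held 4 regions on chromosome 11.

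Most matched regions met a single partner. In the population 787 regions met 1 clone region, 82 met 2 and 24 met 3 or more. In the clone 682 regions met 1 population region, 98 met 2 and 43 met 3 or more. The population region meeting the most clone regions, 7, lay from 119515928 to 119560570 (44.6 kb, 81.8% covered). The clone region meeting the most population regions, 8, lay from 20101687 to 20139854 (38.2 kb, 83.0% covered). Others on the clone side were a region of 25.3 kb (117191043 to 117216335) with 7 partners and regions of 26.3 kb (77606825 to 77633097) and 21.7 kb (119254941 to 119276640) with 6 each. A region of 17.1 kb (21252706 to 21269848) had 5. On the population side the 81.03 kb region had 6 partners, a region of 27.2 kb (49839464 to 49866613) had 5, and those of 13.8 kb (3550039 to 3563851) and 25.7 kb (35619319 to 35645026) had 4 each. At some places the clone list thus held several regions where the population list held 1, and at others the reverse. Whether this came from the calls or from the mark was not tested.

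Where 1 population region met exactly 1 clone region, and the reverse, the clone was the wider about as often as the narrower among the 471 pairs of chromosome 11. The clone region was the wider in 235 pairs (49.9%), where 37.4% were over all chromosomes. The median log2 ratio of clone to population width was -0.0007 (quartiles -0.25 and 0.29), against -0.10 (quartiles -0.62 and 0.11) in the 4733 pairs of the other chromosomes. The median shift was 296 bp for starts and 336 bp for ends, compared with 399 and 438 bp elsewhere. In 75 pairs (15.9%) both edges lay within 200 bp of each other, and in 13.9% elsewhere. The clone region lay inside the population region in 152 pairs (32.3%) and enclosed it in 124 (26.3%), where elsewhere the shares were 46.4% and 19.6%. A 2-fold or larger difference in width was found in 90 pairs, with the clone the wider in 46 and the narrower in 44. Elsewhere the clone was at least 2-fold wider in 343 pairs and narrower in 755.

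**Figure D5:**
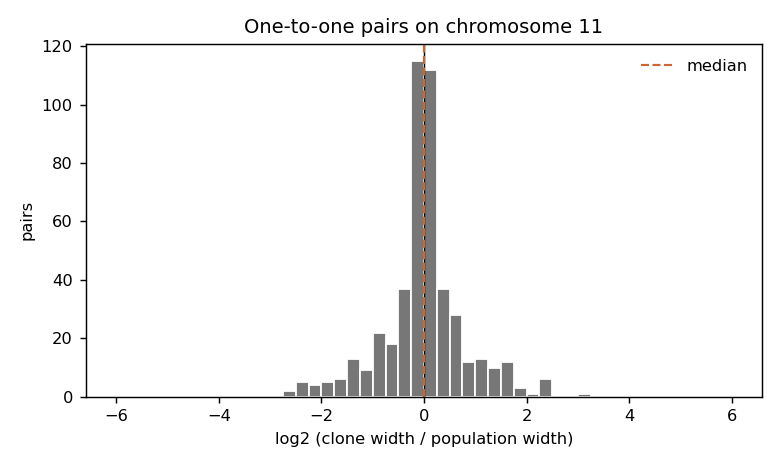
Number of one-to-one pairs on chromosome 11 by the log2 ratio of clone width to population width, in steps of 0.25. The solid line marks equal width and the dashed line the median of the 471 pairs, -0.0007; the lines lie almost on top of each other.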

How the data were processed

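Per the labels, H4K20me1 and serum libraries of the population and the clone were made as 1 library each. CASAVA 1.8.1, Bowtie and mm9 appear in the submitters' processing notes. The peak caller is not given in the sources used here. Names of both lists carry the tag FDR5, whose meaning is not explained, and no other setting is stated. From the authors come 2 deposited lists with 3 columns and no header, holding positions in base pairs and no other value. Each list was assigned by its name to the H4K20me1 library of that culture. Starts were read as counted from 0 and are printed counted from 1. The number and width of called regions can depend on sequencing depth and on enrichment, both unknown here.

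Members, lists and rules were chosen with earlier results of these data known. Regions were named by rule as the 5 most extreme by width, marked sequence, excess, emptiness or number of partners. Exceptions are stated. Bins of 1 Mb and segments of 10 Mb start at the chromosome start. Regions were counted in them by midpoint, while covered and common sequence was cut at their edges. Python 3.11.15, numpy 2.4.6, scipy 1.17.1 and matplotlib 3.10.9 were used. Interval functions, tested on 200 random pairs of lists, differed from a direct count in 0. Genes were not assigned, since the gene table is of GRCm38.p6 and 121 population and 65 clone regions of chromosome 7 lie beyond its last gene there. Sequences were not used here. The alternatives tried were minimum width, wider regions, joining, stricter overlap and other bins.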

Additional observations from a re-analysis of the deposited data

How the results depend on the processing

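Of 60 recomputed values, 25 stayed within their limit (1.5 times, or the exact interval for overlapped shares and the clone share) and 35 left it. Only ratios and the difference in clone share could change direction by this rule, and 0 of them did. Some values could not move. Halving both lists keeps the ratio of regions, and cutting only the population list leaves the clone clusters at 43. Comparisons of the lists did turn. From 2000 bp on population regions had a median of 4703.5 bp and clone regions one of 4587 bp, and empty stretches of at least 1 Mb numbered 24 and 20. With only the 990 widest population regions, clusters of at least 5 regions numbered 27 in the population and 43 in the clone. The causes were not tested beyond what each setting does. The share of population regions met was 63.04% from 2000 bp on, 66.4% with only the 990 widest population regions, 51.5% and 61.3% after joining within 1000 and 10000 bp, 42.7% when coverage of 50% was required, 26.9% when that was required both ways and 51.8% when 1000 bp of distance was allowed. The share of clone regions met was 77.5% from 2000 bp on, 87.3% in the wider 50% of each list, 72.7% with the 990 widest, 86.6% and 92.1% after joining, 75.8% at 50% coverage and 51.5% when required both ways. From 2000 bp on the ratio of population to clone regions was 1.15. The clone share of regions, 4.74 percentage points above that of all chromosomes, was 7.10 above from 2000 bp on and 7.37 above in base pairs. Bins with more clone sequence numbered 28 of 90 from 2000 bp on, 30 of 90 with the 990 widest, 33 with bins of 0.5 Mb and 4 with bins of 2 Mb. Population clusters of at least 5 regions numbered 19 and 24 from 2000 bp on and in the wider 50%. Clone clusters numbered 18 and 4 there and 26 when joined within 5000 bp. Empty stretches of at least 0.5 Mb numbered 38 and 40. Median population widths were 4568, 3021 and 8176 bp in the wider 50% and after joining within 1000 and 10000 bp, and clone medians 7675 bp in the wider 50% and 11051.5 bp after joining within 10000 bp. All statements on unmatched regions are limited by the unknown depth. No paired analysis was possible because there was only 1 library of each kind.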
